A study of Mus musculus with 6 samples.

Results

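Cytokinesis genes were compared between a tetraploid and a diploid line of mouse embryonic fibroblasts. They encode the contractile ring, the central spindle and the abscission machinery that part daughter cells at the end of division. The list named 9 genes, Anln, Ect2, Racgap1, Prc1, Cit, Cep55, Rock1, Rock2 and Lats1. Of these, 8 had a probe set assigned to that gene alone and were measured among 19938 genes in all. The level of Rock2 was not analysed here. The tetraploid samples came from 1 line with abnormal DNA content, which the series title calls transformed, and the diploid samples from 1 normal control line. There were 3 arrays per line, and cells of both were grown in DMEM with 10% serum to 80% confluence. No treatment, allele, strain or passage was given for either line. In this design the effects of ploidy, of transformation and of the line itself cannot be told apart, and it is not stated if the 3 samples per line were separate cultures, so each p-value measures only the spread between these samples.

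Cytokinesis begins when the chromosomes have separated. Prc1 bundles the overlapping microtubules between them into the central spindle, and Racgap1, with the kinesin Kif23, forms the centralspindlin complex there. Centralspindlin recruits Ect2, which switches on the small GTPase RhoA at the cell equator. RhoA acts through formins, the ROCK kinases and citron kinase (Cit) to build and constrict a ring of actin and myosin, which the scaffold anillin (Anln) ties to the membrane and to the septins. Cep55 then brings the ESCRT machinery to the midbody, where the last bridge is cut. Lats1 is a Hippo pathway kinase with roles in mitotic exit. Failed cytokinesis is a known route by which a diploid cell becomes tetraploid. In dividing cells many of these genes are transcribed late in the cell cycle, through promoter elements named CHR (cell cycle genes homology region) and CCAAT.

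The promoters of 5 members are shown because they hold a CHR in the window examined, which RefSeq sequences of the mouse assembly GRCm38.p6 gave for 8 of the 9 members. These are not the 8 measured members, since Rock1 had no window and Rock2 had one. Each stretch runs 5′ to 3′ from 90 bases before to 30 bases after the most downstream listed start. Capitals mark CHR and CCAAT letters on either strand.
Racgap1, chr15:99651627-99651746, minus strand: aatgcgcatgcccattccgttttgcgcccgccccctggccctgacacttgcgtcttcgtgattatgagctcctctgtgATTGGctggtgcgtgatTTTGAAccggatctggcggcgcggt
Ect2, chr3:27153825-27153944, minus strand: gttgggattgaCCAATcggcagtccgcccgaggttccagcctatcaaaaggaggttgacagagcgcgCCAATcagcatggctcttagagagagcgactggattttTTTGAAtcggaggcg
Prc1, chr7:80294386-80294505, plus strand: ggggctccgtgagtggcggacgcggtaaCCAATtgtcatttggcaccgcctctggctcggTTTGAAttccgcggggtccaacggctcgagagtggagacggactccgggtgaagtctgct
Cep55, chr19:38054951-38055070, plus strand: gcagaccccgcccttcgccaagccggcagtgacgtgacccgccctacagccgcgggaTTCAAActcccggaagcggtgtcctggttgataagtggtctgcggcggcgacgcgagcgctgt
Anln, chr9:22389177-22389296, minus strand: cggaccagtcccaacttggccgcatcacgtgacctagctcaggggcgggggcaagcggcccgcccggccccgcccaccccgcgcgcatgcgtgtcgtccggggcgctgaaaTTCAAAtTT

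CHR was searched as TTTGAA or with the third base changed as TTCGAA, and CCAAT by the letters of its name. The E2F element was searched by its form TTCCCGC, by the further form TTCGCGC, and by forms that begin with TTG, which were TTGCCGC and also the form TTGGCGC. All were sought on both strands of windows from 250 bases before to 50 bases after each start. Racgap1 held TTTGAA at bases 6 to 11 after the start and a reverse-strand CCAAT 12 to 8 bases before it. Ect2 held TTTGAA at bases 16 to 21 and CCAAT at 79 to 75 and 23 to 19 bases before the start. An E2F match on the reverse strand overlapped that nearer CCAAT of Ect2. Prc1 held CCAAT 62 to 58 and TTTGAA 30 to 25 bases before the start, Cep55 a reverse-strand TTTGAA 33 to 28 bases before it, and Anln a reverse-strand TTTGAA at bases 22 to 27, followed by a forward one at bases 29 to 34 that runs past the stretch shown. Ect2 also held TTTGAA 138 to 133 and CCAAT 120 to 116 bases before the start, outside the stretch shown. The windows of Cit, Lats1 and Rock2 held no match to these elements. A CHR was found in 5 of the 8 members with a window (62.5%) and in 5854 of 27025 genes with a window (21.7%), counting a gene if any of its windows held it, and in 19.2% of the 32851 single windows. CHR and CCAAT together were found in 3 of these 8 members and in 8.61% of all genes. CCAAT, with or without a CHR, was found in 37.5% of these members, against 41.1% of all genes. An E2F match was found in 12.5% of them, against 10.9%. These matches describe letters and not binding.

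Among the 8 measured members, Racgap1 and Ect2 rose and Rock1 fell in the tetraploid line, while Anln, Prc1, Cit, Cep55 and Lats1 did not pass the test. A gene was called at a Benjamini-Hochberg adjusted p below 0.05 in limma, a moderated linear model fitted to the log2 values of all genes. By this rule 13.8% of all genes were called, 6.08% as higher and 7.75% as lower in the tetraploid line. Among genes above the median level 8.77% were called higher and 8.82% lower. The 3 of 8 called members stood against these backgrounds, and with so few genes the share is a description. The members' median log2 difference, tetraploid minus diploid, was 0.72, against 0.07 over all genes. Levels are the deposited log2 values, and a level of 1 gene's probe set cannot be set against that of another. Of the 8 measured members 6 had positive differences, from 0.64 to 1.84, and Lats1 and Rock1 had negative ones. Over all genes 10921 of 19938 had positive differences.

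**Figure D1:**
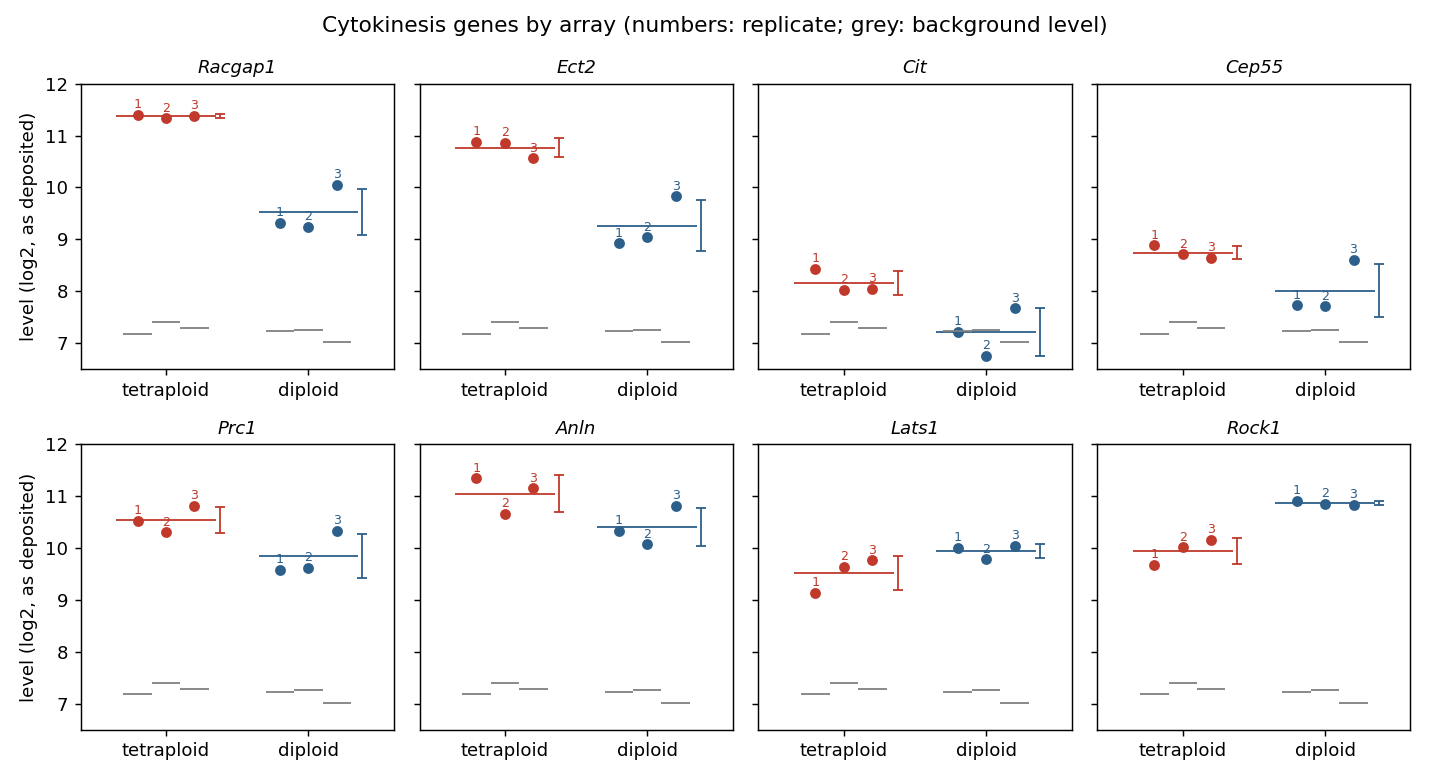
Deposited log2 level of 8 cytokinesis genes on each array, with tetraploid arrays left and diploid arrays right. Points are arrays numbered by replicate, long lines are means, bars are SDs over 3 arrays, and grey dashes mark each array's background level. Racgap1 and Ect2 lie higher on every tetraploid array than on any diploid array, Rock1 lies lower, and diploid array 3 is the highest diploid value in the panels of Racgap1, Ect2, Cit, Cep55, Prc1, Anln and Lats1.

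Racgap1 encodes the GTPase-activating subunit of centralspindlin. It stood at 11.40, 11.33 and 11.38 on tetraploid arrays 1 to 3, against 9.31, 9.24 and 10.04 on diploid arrays 1 to 3. The groups did not overlap, and the tetraploid arrays lay closer together (SD 0.04, against 0.44 on the diploid arrays, n = 3 each). It rose 3.58-fold (log2 difference 1.84, 95% interval 1.22 to 2.46, limma adjusted p = 0.00751). This difference ranked 290 of 19938 from the top. The call was kept in all 6 fits that left out 1 array, with adjusted p from 0.00985 to 0.0384.

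Ect2 encodes the exchange factor that activates RhoA. It stood at 10.88, 10.85 and 10.56 on the tetraploid arrays, against 8.92, 9.03 and 9.83 on the diploid arrays. Diploid array 3 was again the highest of its group, yet below every tetraploid array. Ect2 rose 2.84-fold (log2 difference 1.50, 95% interval 0.82 to 2.19, limma adjusted p = 0.0189). The call ended without tetraploid array 2, diploid array 1 or diploid array 2 (limma adjusted p 0.0583, 0.0697 and 0.0796).

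Prc1, the microtubule bundling protein of the central spindle, stood at 10.52, 10.30 and 10.81 on the tetraploid arrays, against 9.58, 9.62 and 10.34 on the diploid arrays. The groups overlapped, since diploid array 3 lay above tetraploid array 2. The log2 difference was 0.70 (95% interval 0.04 to 1.36, limma adjusted p = 0.147). Prc1 and Racgap1 both belong to the central spindle, and the Racgap1 level minus the Prc1 level on the same array was 0.88, 1.03 and 0.57 in the tetraploid line, against -0.27, -0.38 and -0.30 in the diploid line. That gap was thus higher by 1.14 in the tetraploid line, without overlap, and only its change between the lines is read here.

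Anillin, encoded by Anln, scaffolds the contractile ring. Its level was 11.34, 10.66 and 11.15 on the tetraploid arrays, against 10.34, 10.07 and 10.81 on the diploid arrays. Diploid array 3 exceeded tetraploid array 2, so the groups overlapped. The log2 difference was 0.64 (95% interval -0.03 to 1.32, limma adjusted p = 0.188), which leaves room for a fold of up to 2.49.

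Citron kinase, encoded by Cit, acts at the ring and the midbody. Cit stood at 8.43, 8.02 and 8.04 on the tetraploid arrays, against 7.22, 6.75 and 7.67 on the diploid arrays. The groups did not overlap, but diploid arrays 1 and 2 lay at or below the background level, which was 7.23 and 7.26 there. It was the only member not above background on all 6 arrays. That level is the 95th percentile of 1027 olfactory receptor genes on the same array, which are known chiefly from the nose. The log2 difference was 0.95 (95% interval 0.28 to 1.63, limma adjusted p = 0.0705). Cit did pass the test when only genes above the 25th percentile or above the median of level were tested (limma adjusted p 0.0379 and 0.0220). It did not pass in any of the 6 fits that left out 1 array (limma adjusted p 0.0654 to 0.209).

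Cep55, the midbody protein that recruits ESCRT factors, stood at 8.88, 8.71 and 8.64 on the tetraploid arrays, against 7.73, 7.71 and 8.60 on the diploid arrays. The groups did not overlap, but diploid array 3 lay within 0.04 of tetraploid array 3. The log2 difference was 0.73 (95% interval 0.05 to 1.41, limma adjusted p = 0.144). In the 6 fits that left out 1 array it ran from 0.58 to 1.03, with limma adjusted p from 0.0574 to 0.359. The 1.03 and the 0.0574 came without diploid array 3.

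Rock1, a kinase that RhoA activates and that drives myosin contraction, went the other way. It stood at 9.67, 10.01 and 10.16 on the tetraploid arrays, against 10.91, 10.85 and 10.83 on the diploid arrays. The groups did not overlap, and the diploid arrays lay within 0.08 of each other. Rock1 fell 1.89-fold (log2 difference -0.92, 95% interval -1.40 to -0.43, limma adjusted p = 0.0307). Its call ended without tetraploid array 2 (limma adjusted p = 0.0655) and without any 1 of diploid arrays 1 to 3 (0.109, 0.114 and 0.0908).

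Lats1 stood at 9.14, 9.64 and 9.76 on the tetraploid arrays, against 10.01, 9.78 and 10.04 on the diploid arrays. The groups did not overlap, with a gap of 0.02 between tetraploid array 3 and diploid array 2. The log2 difference was -0.43 (95% interval -0.98 to 0.12, limma adjusted p = 0.275). The Rock1 level minus the Lats1 level was 0.53, 0.38 and 0.39 on the tetraploid arrays, against 0.90, 1.07 and 0.79 on the diploid arrays. Groups without overlap were seen in 6 of 8 members, against 37.3% of all genes (19.1% with the tetraploid line higher and 18.2% with it lower). The share was larger among the 9969 genes above the median level, which include the 8 measured members. Of these genes 2667 had no overlap with the tetraploid line higher and 2301 with it lower.

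**Figure D2:**
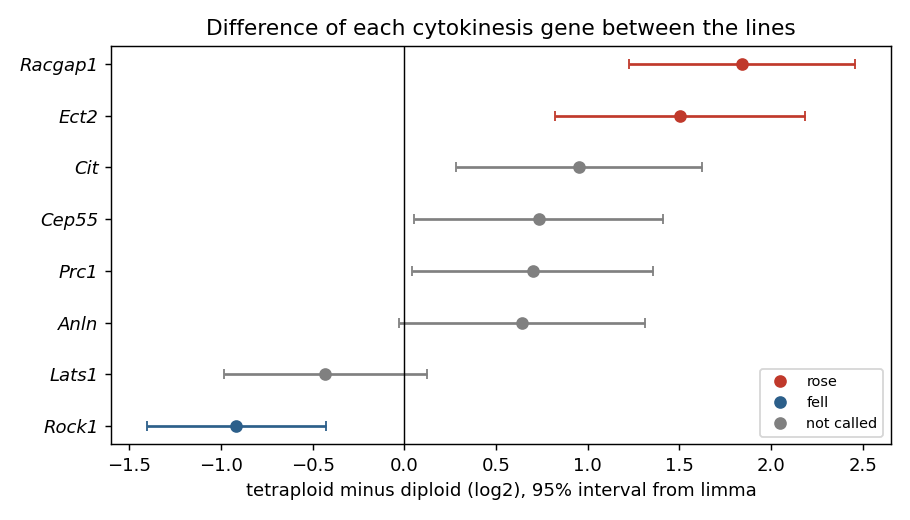
Log2 difference between the lines, tetraploid minus diploid, for 8 cytokinesis genes, with 95% intervals from limma. Racgap1 at 1.84 and Ect2 at 1.50 are called higher (red) and Rock1 at -0.92 is called lower (blue), while the intervals of Cit, Cep55 and Prc1 lie above 0 but their adjusted p does not pass (grey).

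Racgap1 was also set against each of Anln, Ect2, Prc1, Cit and Cep55 on the same array, and Rock1 against Lats1. In these 6 pairs the tetraploid and diploid gaps did not overlap. The gap from Racgap1 was higher in the tetraploid line by 1.20 against Anln, 1.11 against Cep55, 0.89 against Cit and 0.34 against Ect2. Racgap1 had the largest rise of the members and Rock1 a larger fall than Lats1, so the direction of the gaps follows from the choice of pairs. That choice also favours gaps without overlap, and the share of such gaps among other gene pairs was not computed. The gaps are given as a description with no test, since an exact two-sided permutation test of 3 arrays against 3 gives no p below 0.1.

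The spread within the diploid line was shared among members. Diploid array 3 was the highest diploid array for 7 of 8 members, all but Rock1, and for 39.2% of all genes. Among genes above the median level the share was 46.6%. Relative to the mean of diploid arrays 1 and 2, array 3 was higher by 0.88 for Cep55, 0.85 for Ect2, 0.77 for Racgap1, 0.74 for Prc1, 0.68 for Cit and 0.61 for Anln. The same gap was 0.14 for Lats1, -0.05 for Rock1 and, as a median, 0.05 over all genes. For Cep55, Ect2, Racgap1, Prc1, Cit and Anln array 3 was thus the diploid array nearest to the tetraploid arrays, while for Lats1 it was the farthest from them. Without it the log2 difference was 2.10 for Racgap1 (limma adjusted p = 0.00985), 1.79 for Ect2 (0.0177), 1.18 for Cit (0.0654), 0.95 for Prc1 (0.0896) and 0.84 for Anln (0.155). Leaving out the diploid array nearest to the tetraploid arrays enlarges these differences by arithmetic. For Rock1 the difference without array 3 was -0.93 (limma adjusted p = 0.0908) and for Lats1 -0.38 (0.470).

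**Figure D3:**
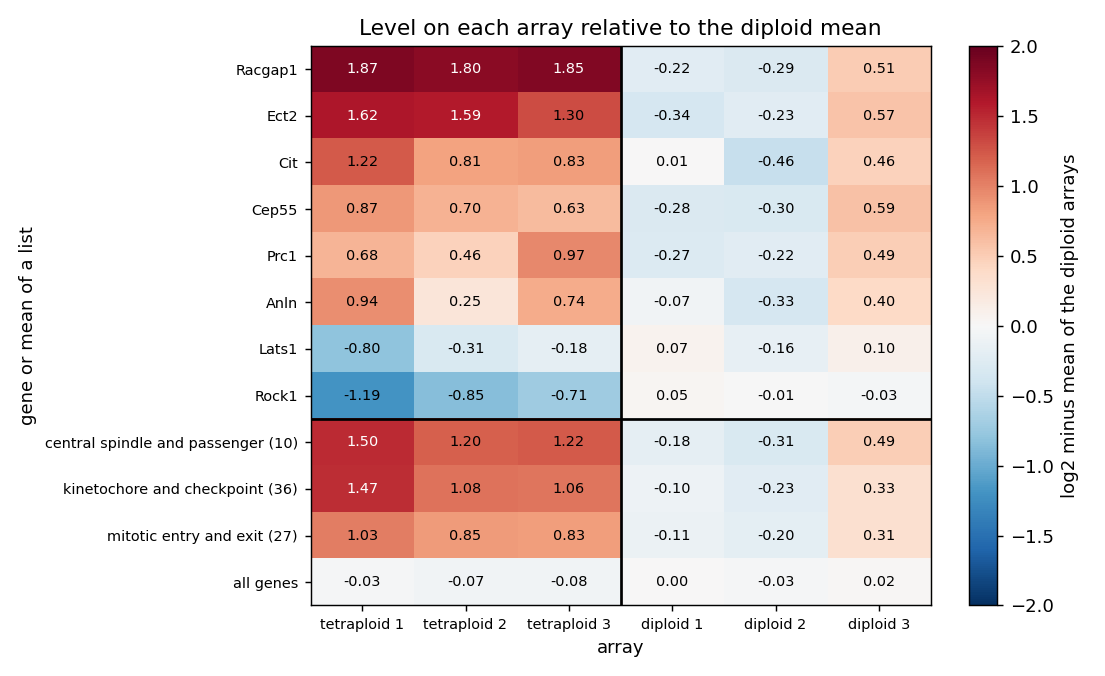
Log2 level on each array minus the mean of the 3 diploid arrays, for 8 cytokinesis genes (top) and for the means of the central spindle and passenger list, 2 mitotic lists and all genes (bottom). Red is above and blue below the diploid mean. Diploid array 3 lies 0.40 to 0.59 above it for Racgap1, Ect2, Cit, Cep55, Prc1 and Anln, while the mean of all genes differs by 0.02.

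Markers of other cells also differed between arrays. Macrophage and leukocyte markers above background numbered 1, 1 and 0 of 10 on the tetraploid arrays, against 1, 3 and 5 on the diploid arrays, and their summed linear level was 424 to 804 against 557 to 2330, highest on diploid array 3. The leukocyte gene Ptprc and the macrophage gene Adgre1 lay at or below background on all 6 arrays, and Adgre1 was listed at 0 on tetraploid array 1. Endothelial markers above background numbered 0 of 5 on each tetraploid array, against 1 to 2 on the diploid arrays (summed level 234 to 326 against 692 to 788), while Pecam1 and Cdh5 lay at or below background throughout. Epithelial markers numbered 3 of 6 above background on each tetraploid array, against 2 to 4 on the diploid arrays (summed level 746 to 1037 against 906 to 1310). All 11 fibroblast markers lay above background on all 6 arrays, with a summed level of 51438 to 62073 against 77917 to 80850. The part of these markers in the members' values was not tested. In such bulk samples fewer cells of a type and less RNA per cell cannot be told apart, and a smaller share of dividing cells cannot be told from less RNA in each.

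The rest of the pathway was taken from a list of 82 other cytokinesis genes, of which 80 were measured. In it 12 genes rose (15%, against 6.08% of all genes), 11 fell (13.8%, against 7.75%) and 57 did not pass, with a median difference of -0.19. The 23 calls became 15, 10 and 17 without tetraploid arrays 1, 2 and 3, and 6, 6 and 13 without diploid arrays 1, 2 and 3. Over all genes the 2758 calls became 2522, 1589 and 2370 without tetraploid arrays 1, 2 and 3, and 1040, 839 and 1262 without diploid arrays 1, 2 and 3. All 10 measured partners at the central spindle, namely kinesins, Shcbp1 and the chromosomal passenger complex, had positive differences from 0.92 to 1.69. Their median was 1.30, and 8 of them rose (80%, against 6.08% of all genes). Kif14, which was not called, lay above background on 2 of 3 tetraploid arrays and 0 of 3 diploid arrays. Its deposited log2 difference was 1.27, and with values raised to background it was 1.38-fold higher. Shcbp1, a binding partner of centralspindlin, stood at 9.87, 10.14 and 10.24 on the tetraploid arrays, against 8.26, 8.05 and 8.86 on the diploid arrays, and rose 3.23-fold (limma adjusted p = 0.0106). The kinesin gene Kif20b was 2.84-fold and the passenger kinase gene Aurkb 2.63-fold higher. Diploid array 3 was the highest diploid array for all 10, as it was for Racgap1 and Ect2. The calls of Kif20b and Aurkb ended without tetraploid array 2, diploid array 1 or diploid array 2 (limma adjusted p 0.0568 to 0.0770 and 0.0559 to 0.0801).

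RhoA itself and its relatives were not called, and 2 of the 8 genes of this role rose (25%, against 6.08% of all genes). Diaph3, a formin that grows actin filaments, was 2.41-fold higher (limma adjusted p = 0.0194), and Arhgap11a, which turns RhoA off, 1.98-fold (limma adjusted p = 0.0440). Rhoa, read from the probe set with the higher mean of its 2, had a log2 difference of -0.35 (limma adjusted p = 0.259). The call of Arhgap11a ended in all 6 fits without 1 array (limma adjusted p 0.0645 to 0.157) and that of Diaph3 in the same 3 as Aurkb (0.0568 to 0.0839).

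Among 20 measured genes for the myosin, actin and septins of the ring, 1 rose, 2 fell and 17 did not pass (median -0.35), a share of calls near the 13.8% of all genes. Septin6, a filament protein, stood at 9.91, 9.75 and 9.86 on the tetraploid arrays, against 7.86, 8.05 and 8.21 on the diploid arrays. It was 3.47-fold higher (limma adjusted p = 0.00325), without overlap, while Septin2, Septin7, Septin9 and Septin11 had log2 differences from -0.51 to -0.21 that did not pass. The actin crosslinker gene Actn1 fell 2.51-fold (limma adjusted p = 0.00718) and Actn4 2.20-fold (0.0193). The call of Actn4 ended without any 1 diploid array (limma adjusted p 0.0673 to 0.0797). The myosin light chain gene Myl9 had a log2 difference of -1.88 (limma adjusted p = 0.0732), with 10.23, 9.59 and 11.97 on the tetraploid arrays.

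Of 5 kinases that resemble ROCK or act below it, 3 fell (60%, against 7.75% of all genes), 0 rose and 2 missed the threshold. All 5 differences were negative (median -1.10). Limk2, which ROCK activates to protect actin filaments, stood at 9.08, 8.75 and 8.79 on the tetraploid arrays, against 10.48, 10.38 and 10.39 on the diploid arrays, and fell 2.91-fold (limma adjusted p = 0.00506). The myotonic dystrophy kinase gene Dmpk was not above background on any tetraploid array and stood at 9.52, 10.24 and 9.45 on the diploid arrays, so it was at least 5.45-fold lower (limma adjusted p = 0.00237). Cdc42bpa fell 2.14-fold (limma adjusted p = 0.0283), a call lost when any 1 array other than tetraploid array 3 was left out (0.0600 to 0.0970).

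Among 27 abscission and ESCRT genes 1 rose, 2 fell and 24 did not pass (median -0.20), a share of calls below the 13.8% of all genes. The ESCRT-III gene Chmp1b fell 1.97-fold (limma adjusted p = 0.0382) and the membrane traffic gene Rab11a 1.71-fold (0.0479). The Cep55 partners Pdcd6ip and Tsg101 had log2 differences of -0.53 and -0.59 (limma adjusted p 0.105 and 0.121), against 0.73 for Cep55. Tsg101 was read from the probe set with the higher mean of its 2. The centriole and midbody gene Cntrl, singled out after its values were seen, was not above background on any diploid array or on tetraploid array 3. It rose with values as deposited (limma adjusted p = 0.0482) and was 1.75-fold higher with values raised to background. The calls of Chmp1b, Rab11a and Cntrl were lost when any 1 array other than tetraploid array 3 was left out (limma adjusted p 0.0686 to 0.127, 0.0728 to 0.152 and 0.0948 to 0.151), and that of Cntrl with values raised to background (0.0548).

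Around Lats1, 4 of 10 measured Hippo genes fell (40%, against 7.75% of all genes), 0 rose and 6 did not pass (median 0.02). With so few genes per role, such shares are a description. Its close relative Lats2 stood at 8.29, 9.001 and 9.05 on the tetraploid arrays, against 10.88, 10.61 and 10.72 on the diploid arrays. Lats2 thus fell 3.87-fold without overlap (limma adjusted p = 0.00631), with the call kept in all 6 fits without 1 array. The upstream kinase gene Stk4 fell 1.91-fold and the effector Yap1 1.73-fold (limma adjusted p 0.0288 and 0.0298). Mob1b, a kinase activator singled out after its values were seen, fell 1.72-fold (limma adjusted p = 0.0495). The calls of Stk4, Yap1 and Mob1b were lost in 4, 5 and 5 of the 6 fits, among them those without any 1 diploid array and without tetraploid array 3 (limma adjusted p 0.0523 to 0.104, 0.0543 to 0.122 and 0.0961 to 0.158), for Yap1 and Mob1b also without tetraploid array 2.

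**Figure D4:**
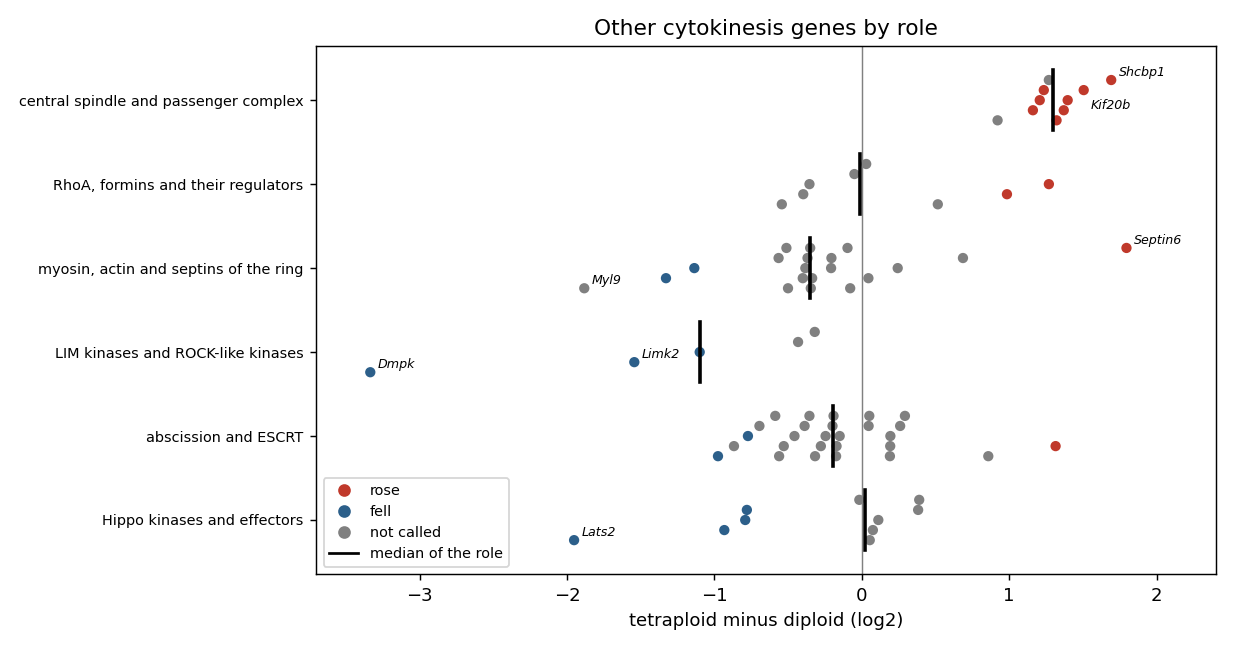
Log2 difference, tetraploid minus diploid, of 80 other cytokinesis genes in rows by role, with red for called higher, blue for called lower and grey for not called. Black bars are medians, at 1.30 for the central spindle and passenger complex and -1.10 for the LIM and ROCK-like kinases, and named points are those with a log2 difference beyond 1.45 in size.

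For comparison, 2 lists of other mitotic genes were taken, and neither held a gene that fell. Of 36 kinetochore and spindle checkpoint genes 27 rose and 0 fell (75.0% rose, against 6.08% of all genes, median 1.32), among them Cenpm, 5.64-fold higher, and the cohesin protector gene Sgo1, 4.40-fold (limma adjusted p 0.00354 and 0.0115). Sgo1 lay above background on all 3 tetraploid arrays but on only 1 of 3 diploid arrays, and its log2 difference was 1.90 with values raised to background, against 2.14 as deposited. Of 27 measured genes for mitotic entry and exit 15 rose and 0 fell (55.6% rose, median 1.01), among them the separase gene Espl1, 3.79-fold, and the phosphatase gene Cdc25b, 3.60-fold (limma adjusted p 0.00448 and 0.0101). The 42 calls of both lists became 27, 24 and 29 without tetraploid arrays 1, 2 and 3, and 11, 8 and 34 without diploid arrays 1, 2 and 3. Whether the lists differ from the members was not tested. Diploid array 3 was the highest diploid array for 33 of the 36 and 22 of the 27 genes. CHR letters were found in the windows of 17 of 32 and 12 of 20 genes of these lists. CHR and CCAAT together were found in 13 of these 32 and 11 of these 20 genes. Within the wider list CHR letters were found for 21 of 69 genes with a window (30.4%, against 21.7% of all genes). By role these were 5 of 6 central spindle and passenger genes, 8 of 22 abscission and ESCRT genes, 3 of 10 Hippo genes, 3 of 19 myosin, actin and septin genes, 1 of 7 RhoA and formin genes and 1 of 5 LIM and ROCK-like kinases.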

How the data were processed

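Total RNA was depleted of ribosomal RNA and copied into target for Affymetrix whole-transcript arrays of the mouse, per the labels' protocols. The deposited values are log2 levels, 1 per probe set and array, and the submitters' processing notes name Affymetrix Expression Console. Its version, algorithm and normalization are not given in the sources used here. Array medians differed by at most 0.0435, so values were used as deposited. Of 28944 probe sets, 21789 carried 1 gene symbol in the platform table (symbols updated through the GRCm38.p6 RefSeq table), 1621 several and 5534 none. Per gene the probe set with the highest mean was kept, which left 19938 genes. Each measured member had 1 such probe set.

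The lines were compared with limma 3.58.1 (R 4.3.3, lmFit and eBayes, two-sided) over all genes with Benjamini-Hochberg adjustment. Folds against a line at or below background on all its arrays were computed with every value below background raised to it. Such a fold is a lower bound where the other line lay above background on all its arrays, as for Dmpk. For Cntrl and Kif14 a tetraploid array was raised as well, so their folds are not strict bounds. The number of arrays limits the precision, and no read depth applies. Named genes were the members, up to 3 called rises and 3 called falls per role of the wider list, above background on all arrays of 1 line, and the 2 largest called differences of each comparison list. The members and lists were chosen with earlier results of these data known. The labels number replicates alike in both lines without pairing them, and deviations correlated at 0.10, 0.03 and -0.05 between same-numbered arrays.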

Additional observations from a re-analysis of the deposited data

How the results depend on the processing

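Normalization by array medians or quantiles left the number of called members at 3. Averaging of probe sets also did, but each measured member had 1 probe set, so its values could not change. A filter on low values made it 4, with Cit added. With that filter at the 25th percentile 3271 of 14953 genes were called, and at the median 3135 of 9969. The number of called members was 5 with trend and robust eBayes and 6 with every value below background raised to it. Cit, Prc1 and, in the second fit, Cep55 were added as rises. Over all genes the calls grew as well, to 4011 and 3947 of 19938. With the replicate number as a block, 1 member was called (Racgap1), 9 genes of the wider list against 23, 24 of the comparison lists against 42, and 1647 of all genes against 2758. Ect2 and Rock1 then had limma adjusted p of 0.0513 and 0.0815. Same-numbered arrays share only a number. Leaving out 1 array gave 1 to 3 called members, 6 to 17 called genes of the wider list, 8 to 34 of the comparison lists and 839 to 2522 of all genes. Calls were thus lost across all genes as well as among the members. No direction of the 30 genes followed was reversed in any of the 14 alternatives, but many of these fits could not reverse one. The filters, the other eBayes settings and the replicate block leave the log2 difference as it was. Leaving out 1 array cannot reverse a gene whose groups do not overlap. In 73 of their fits a call was lost and in 7 one was gained, with 339 on the same side of the threshold. Racgap1 was called in all 14 alternatives, while Anln and Lats1 were called in 0 of 14. Signal over background limits Cit, Dmpk, Cntrl, Kif14 and Sgo1.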
